A study of Fukomys damarensis and Heterocephalus glaber and Cavia porcellus with 28 samples.

Results

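The genes described here encode 10 proteins that hepatocytes release into the blood to carry, scavenge or hold back small molecules and other proteins. They were taken from the heart and liver tables by matching mouse Ensembl identifiers to the symbols Alb, Afp, Gc, Ttr, Rbp4, Hp, Hpx, Ambp, Ahsg and Fetub. All 10 were present among 13928 rows. The tissues came from the naked mole-rat (Heterocephalus glaber), the Damaraland mole-rat (Fukomys damarensis), the guinea pig (Cavia porcellus) and the mouse (Mus musculus), all without any treatment named in the labels. Both mole-rats are long-lived rodents of African burrows, and the other two species serve as outgroups in a study of how gene expression evolved in mole-rats. Total RNA from frozen tissue was sequenced after removal of ribosomal RNA.

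Naked mole-rats gave 3 hearts and 4 livers at 13 to 17 months of age, and Damaraland mole-rats gave 5 hearts and 5 livers at 36 to 48 months. Guinea pigs gave 3 hearts and 3 livers at 2.3 months, and mice gave 3 hearts and 2 livers at 2 months. The animals were male except 1 female Damaraland mole-rat, the source of liver replicate 4. Of 18 animals, 10 are represented in both tissues. Age differed with species, so age and species cannot be told apart. In bulk tissue, fewer hepatocytes and less RNA per hepatocyte cannot be told apart either.

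Plasma carrier proteins solve a transport problem: fatty acids, retinol, thyroid hormone, vitamin D and heme are poorly soluble or harmful when free. Albumin is the general carrier, while transthyretin, retinol-binding protein and vitamin D-binding protein each hold particular hormones or vitamins. Haptoglobin and hemopexin capture hemoglobin and heme that leak from red cells, and their genes are among those raised in the acute phase response, the liver's reaction to inflammation. Alpha-fetoprotein is the albumin relative of the fetal liver and is largely silenced after birth in many mammals. In the Damaraland mole-rat annotation of RefSeq (DMR_v1.0_HiC), 9 of the 10 symbols were found, all except Hp. There Alb and Afp are neighbouring protein-coding genes, as are Fetub and Ahsg.

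The deposited values are variance-stabilised and behave like log2 of the read count for abundant genes. Differences below are differences of these values, so 1 is about 2-fold for abundant genes and less than the true change for rare ones. The number of reads was recovered from each value, and scaled reads are those counts after division by the size factor of their library. Values are not corrected for gene length, so levels are not compared between genes. Gene length and annotation can also differ between species, and no correction for this was made here. Its part in the differences between species is not known. Recovered reads per library ran from 11220505 to 21467939 in liver and from 4089633 to 26985779 in heart, the lowest being naked mole-rat heart replicate 3. These totals are sums over the 13928 rows, so shares of reads leave out any read assigned to no row. How far that part differed between species is not known. The 21 hepatocyte markers found in the table summed to 50960 to 76070 RPM (reads scaled to a total of 1000000 recovered reads) in liver, and the tissue labels were borne out in that respect. A gene was called different at an adjusted p under 0.05 and a difference of at least 1, with limma and Benjamini-Hochberg adjustment over all 10887 genes tested in liver or 10667 in heart.

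**Figure D1:**
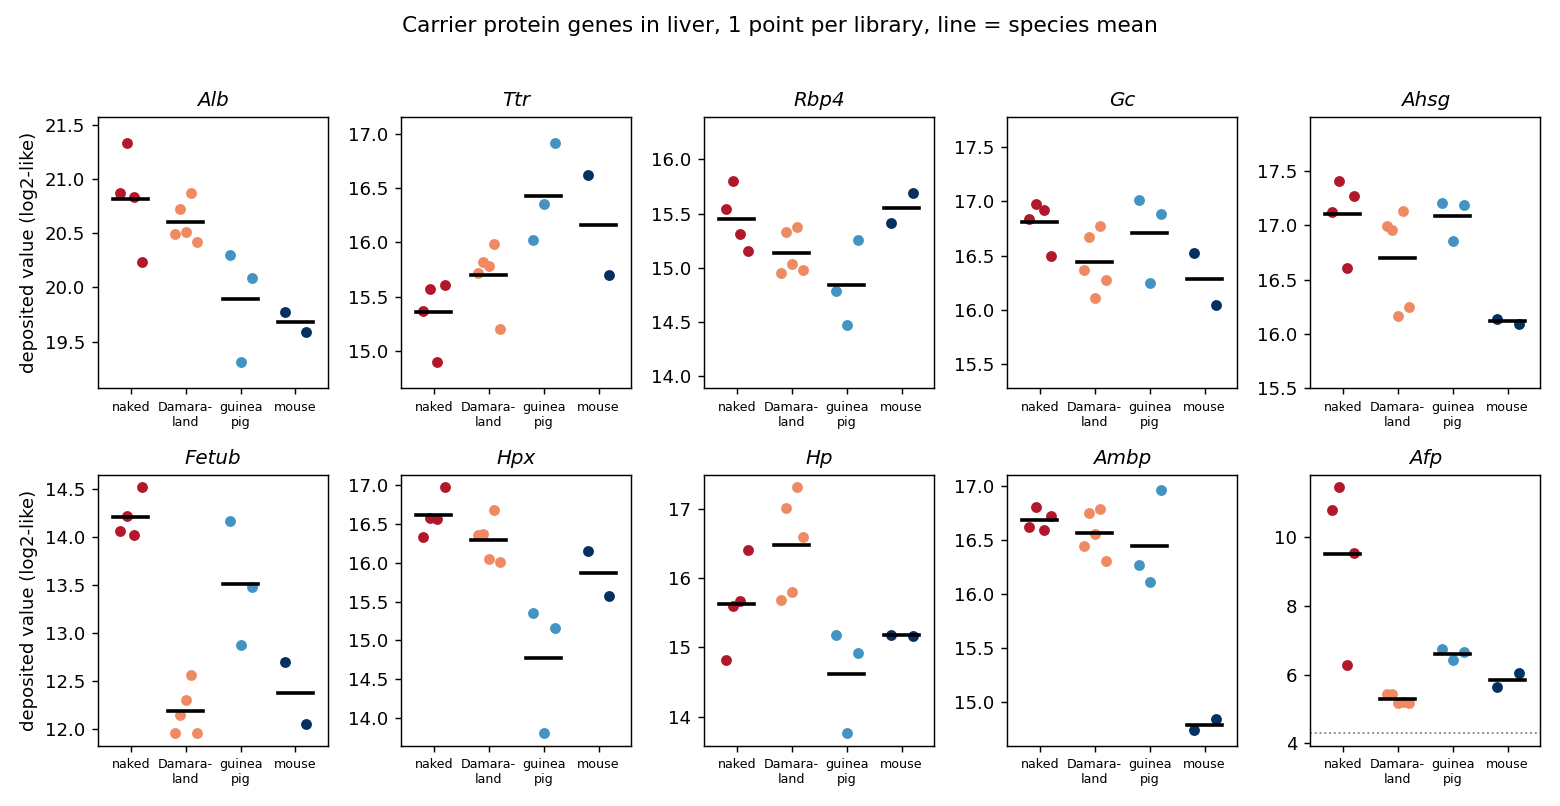
Deposited log2-like values of the 10 carrier genes in liver, 1 panel per gene with its own y axis and 1 point per library; black lines are species means and the dotted line in the Afp panel is the value of 0 reads (4.29). Afp is high in naked mole-rats except replicate 3, Fetub is high in naked mole-rats and guinea pigs, and Ambp is low in both mice.

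Alb (ENSMUSG00000029368), the most abundant protein of plasma, had liver values of 20.87, 21.33, 20.83 and 20.24 in naked mole-rats. Damaraland livers had 20.50, 20.72, 20.51, 20.87 and 20.42. Guinea pig livers had 20.30, 19.31 and 20.08, and mouse livers 19.77 and 19.59. Both mole-rats were high and overlapped each other, while both mice lay below every mole-rat library and 1 naked mole-rat lay below the highest guinea pig. As a share of the recovered reads of a library, Alb took 11.9% ± 2.98 (SD, n = 4) in naked mole-rats and 11.8% ± 0.738 (n = 5) in Damaraland mole-rats. It took 7.54% ± 1.86 (n = 3) in guinea pigs and 6.34% ± 0.591 (n = 2) in mice. The mean of the mole-rats exceeded the mean of the outgroups by 0.92 ± 0.31 (SE), which had an adjusted p of 0.0133 with limma but stayed under the size threshold. It passed that threshold without guinea pig replicate 1 or naked mole-rat replicate 4 (1.02 each), and without the latter Alb was also called against guinea pigs (1.11, adjusted p = 0.0453). Naked mole-rats exceeded mice by 1.14 ± 0.47 (limma, adjusted p = 0.0418), a call that was lost without any of 6 libraries (naked mole-rat replicates 1 to 3, Damaraland replicate 1 or either mouse), with adjusted p from 0.0532 to 0.181.

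The 10 genes together took 15.9% ± 2.82 of liver reads in naked mole-rats, 16.1% ± 1.31 in Damaraland mole-rats, 11.5% ± 2.14 in guinea pigs and 9.41% ± 1.10 in mice (SD, n = 4, 5, 3 and 2). Without Alb, the other 9 took 3.96% ± 0.465, 4.22% ± 0.616, 3.98% ± 0.422 and 3.08% ± 0.505 in the same order. The step between mole-rats and outgroups in the sum therefore lay in Alb, whereas the sum of the other genes was similar in both mole-rats and in guinea pigs.

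Afp (ENSMUSG00000054932), the fetal relative of albumin, gave the widest differences of the set. Naked mole-rat livers had values of 10.80, 11.46, 6.29 and 9.55, from 52 reads in replicate 3 to 2013 reads in replicate 2. Damaraland livers had 5.45, 5.43, 5.19, 5.22 and 5.17, guinea pigs 6.74, 6.44 and 6.67, and mice 5.66 and 6.06. Of the naked mole-rats, 3 lay far above every other library, and replicate 3 lay inside the range of the guinea pigs and mice combined. In scaled reads the means were 1320.5 ± 1199.0 in naked mole-rats (SD, n = 4), 10.0 ± 2.9 in Damaraland mole-rats (n = 5), 63.3 ± 10.0 in guinea pigs (n = 3) and 26.1 ± 10.2 in mice (n = 2).

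Naked mole-rats exceeded Damaraland mole-rats in Afp by 4.24 ± 0.66, guinea pigs by 2.91 ± 0.76 and mice by 3.67 ± 0.86 (limma, adjusted p = 2.51e-05, 0.00277 and 0.00124). With voom on the recovered reads the difference from mice was 4.47 with an adjusted p of 0.0559. Damaraland mole-rats, the lowest of the 4 species, were not called different from guinea pigs (−1.32 ± 0.72) or mice (−0.57 ± 0.83), with adjusted p of 0.117 and 0.566. The spread among the naked mole-rats entered the shared error: without their replicate 3, the same −1.32 between Damaraland mole-rats and guinea pigs was called (limma, adjusted p = 0.000923). The mole-rat average then exceeded the outgroups by 1.71 (adjusted p = 9.15e-06) instead of 1.17 ± 0.56 (adjusted p = 0.0738).

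Gc (ENSMUSG00000035540) encodes the vitamin D-binding protein, a further member of the albumin family, and was among the steadiest of the 10. Its species means in liver were 16.81 in naked mole-rats, 16.71 in guinea pigs, 16.44 in Damaraland mole-rats and 16.29 in mice. Single libraries ran from 16.04 to 17.01, the species overlapped, and no liver comparison called it; the widest difference, naked mole-rats minus mice, was 0.52 ± 0.30 (limma, adjusted p = 0.139).

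Ttr (ENSMUSG00000061808), which binds thyroxine and holds retinol-binding protein in the circulation, went the other way from Alb. Its liver values were 15.37, 15.57, 14.90 and 15.61 in naked mole-rats and 15.72, 15.82, 15.78, 15.99 and 15.20 in Damaraland mole-rats. Guinea pigs had 16.02, 16.35 and 16.91, and mice 16.63 and 15.70. Every naked mole-rat lay below every outgroup library, and 1 mouse fell among the Damaraland values. Naked mole-rats were below guinea pigs by 1.07 ± 0.29 (difference −1.07, limma, adjusted p = 0.00388); the difference shrank under the size threshold without guinea pig replicate 3 (−0.83, adjusted p = 0.0303) or naked mole-rat replicate 3 (−0.92, adjusted p = 0.0146). The mole-rat average minus the outgroup average was −0.77 ± 0.22 with an adjusted p of 0.00473, also under the size threshold. Naked mole-rats minus mice was −0.80 ± 0.33 (adjusted p = 0.0423), and −1.27 without mouse replicate 2 (adjusted p = 0.0142).

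Rbp4 (ENSMUSG00000024990), the retinol carrier that travels with transthyretin, did not share that order. Mice were highest at 15.55, followed by naked mole-rats at 15.45, Damaraland mole-rats at 15.13 and guinea pigs at 14.84 (species means). No liver comparison called it, and neighbours in this order had adjusted p of 0.765, 0.177 and 0.258 (limma). The largest difference was guinea pigs minus mice at −0.71 ± 0.28 (adjusted p = 0.0371), below the size threshold.

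Hpx (ENSMUSG00000030895) encodes hemopexin, which binds free heme and delivers it to the liver. Its values were 16.33, 16.57, 16.56 and 16.97 in naked mole-rats and 16.36, 16.37, 16.05, 16.68 and 16.00 in Damaraland mole-rats. Guinea pigs had 15.36, 13.80 and 15.16, and mice 16.15 and 15.58. All 3 guinea pigs lay below all other livers, with replicate 2 lowest, and 1 mouse fell among the Damaraland mole-rats. Hpx was higher than in guinea pigs by 1.84 ± 0.33 in naked mole-rats and by 1.52 ± 0.31 in Damaraland mole-rats (limma, adjusted p = 0.000101 and 0.000411). Guinea pigs minus mice was −1.09 ± 0.39 (adjusted p = 0.0245), and was no longer called without guinea pig replicate 2 (−0.60, adjusted p = 0.116) or mouse replicate 1 (−0.80, adjusted p = 0.197).

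Hp (ENSMUSG00000031722), haptoglobin, which captures free hemoglobin for uptake by macrophages, was highest in Damaraland mole-rats. Their values were 15.69, 17.01, 15.79, 17.31 and 16.59, against 14.82, 15.60, 15.67 and 16.40 in naked mole-rats. Guinea pigs had 15.17, 13.76 and 14.92 and both mice 15.17. The Damaraland livers spread widely, overlapped the naked mole-rats, and all lay above every outgroup liver. They exceeded guinea pigs by 1.86 ± 0.41 and mice by 1.31 ± 0.47 (limma, adjusted p = 0.000762 and 0.0228), the latter lost without either mouse (adjusted p = 0.0979 and 0.101). Naked mole-rats exceeded guinea pigs by 1.01 ± 0.43 (adjusted p = 0.0497), a call just past both thresholds that was lost without guinea pig replicate 2 (0.57, adjusted p = 0.273) and without any of 8 other libraries (naked mole-rat replicates 2 to 4, Damaraland replicates 2 and 5, guinea pig replicate 3, either mouse). Naked minus Damaraland mole-rats was −0.86 ± 0.38 (adjusted p = 0.0544), and was called without Damaraland replicate 1 or 3 or naked mole-rat replicate 4 (−1.06, −1.03 and −1.12). The symbol Hp was not found in the Damaraland annotation described above, and how reads of that species were assigned to Hp is not known.

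Hp within the Damaraland livers was set beside the summed reads of other acute phase genes. The 16 acute phase genes in the table, a list that does not hold Hp or Hpx, summed to 17150, 28480, 17670, 30490 and 23070 RPM in replicates 1 to 5. Hp was highest in replicates 4 and 2 and lowest in replicates 1 and 3, the same order as that sum. The fibrinogen genes Fga, Fgb and Fgg made up most of it (on average 26.4%, 22.9% and 18.1%), so it says little of the rarer genes on the list. Replicate 4 is the female. The part of the acute phase in the species difference of Hp was not tested. Sums in the other species were 32810 to 39240 (naked mole-rats), 24530 to 33210 (guinea pigs) and 18400 to 21150 (mice). Single genes of the list also differed between species, so these sums do not rank the species by acute phase state.

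Ambp (ENSMUSG00000028356) encodes a precursor cut into alpha-1-microglobulin, a heme and radical scavenger, and bikunin, the light chain of the inter-alpha-trypsin inhibitors. It was even across the 3 hystricognath species: 16.61, 16.81, 16.59 and 16.72 in naked mole-rats, 16.44, 16.74, 16.55, 16.78 and 16.31 in Damaraland mole-rats, and 16.26, 16.11 and 16.95 in guinea pigs. Mice had 14.74 and 14.84, well below every other liver. Ambp exceeded the mouse level by 1.89 ± 0.27 in naked mole-rats, 1.77 ± 0.26 in Damaraland mole-rats and 1.65 ± 0.29 in guinea pigs (limma, adjusted p = 1.19e-05, 1.7e-05 and 0.000109). The mole-rats did not differ from guinea pigs beyond error (0.24 ± 0.24 and 0.12 ± 0.23, adjusted p = 0.392 and 0.658). The call of Ambp in the mole-rat average against the outgroup average (1.01 ± 0.18) thus rested on the mouse, which supplied the only low values. It slipped below a difference of 1 when any of 7 libraries was left out (naked mole-rat replicates 2 and 4, Damaraland replicates 2 and 4, guinea pig replicates 1 and 2, mouse replicate 1), to between 0.92 and 0.9998.

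Ahsg (ENSMUSG00000022868) and Fetub (ENSMUSG00000022871) encode the fetuins; fetuin-A binds calcium phosphate in plasma and fetuin-B inhibits astacin-type proteases. Fetub values were 14.06, 14.22, 14.03 and 14.52 in naked mole-rats and 11.95, 12.14, 12.30, 12.56 and 11.95 in Damaraland mole-rats. Guinea pigs had 14.17, 12.87 and 13.48 and mice 12.69 and 12.05. Naked mole-rats and guinea pigs were the high pair, although Damaraland and naked mole-rats are the closer relatives, and the naked and Damaraland mole-rats did not overlap. Naked mole-rats exceeded Damaraland mole-rats by 2.03 ± 0.23 and mice by 1.84 ± 0.30 (limma, adjusted p = 5.99e-07 and 3.93e-05). Guinea pigs were above mice by 1.14 ± 0.31 and Damaraland mole-rats were below guinea pigs (−1.33 ± 0.25), with adjusted p of 0.00502 and 0.000182. Without guinea pig replicate 1 both fell below the size threshold, at 0.81 and −0.997, while naked mole-rats minus guinea pigs (0.70 ± 0.26) rose to 1.03 and was called (adjusted p = 0.00197). Without mouse replicate 2, guinea pigs minus mice was 0.82 (adjusted p = 0.0947).

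Ahsg had species means of 17.10 in naked mole-rats, 17.08 in guinea pigs, 16.70 in Damaraland mole-rats and 16.11 in mice. Single values in Damaraland mole-rats ran from 16.16 to 17.13, and both mice (16.14 and 16.09) lay below all other livers. No liver comparison called Ahsg: naked mole-rats minus mice was 0.99 ± 0.34 and guinea pigs minus mice 0.97 ± 0.35 (limma, adjusted p = 0.0157 and 0.0257), both just under the size threshold. The former was called without naked mole-rat replicate 3 (1.16) and the latter without guinea pig replicate 2 (1.09). The neighbouring Fetub was thus called between the mole-rats and Ahsg (0.40 ± 0.26, limma, adjusted p = 0.177) was not. The difference between these genes was not tested.

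**Figure D2:**
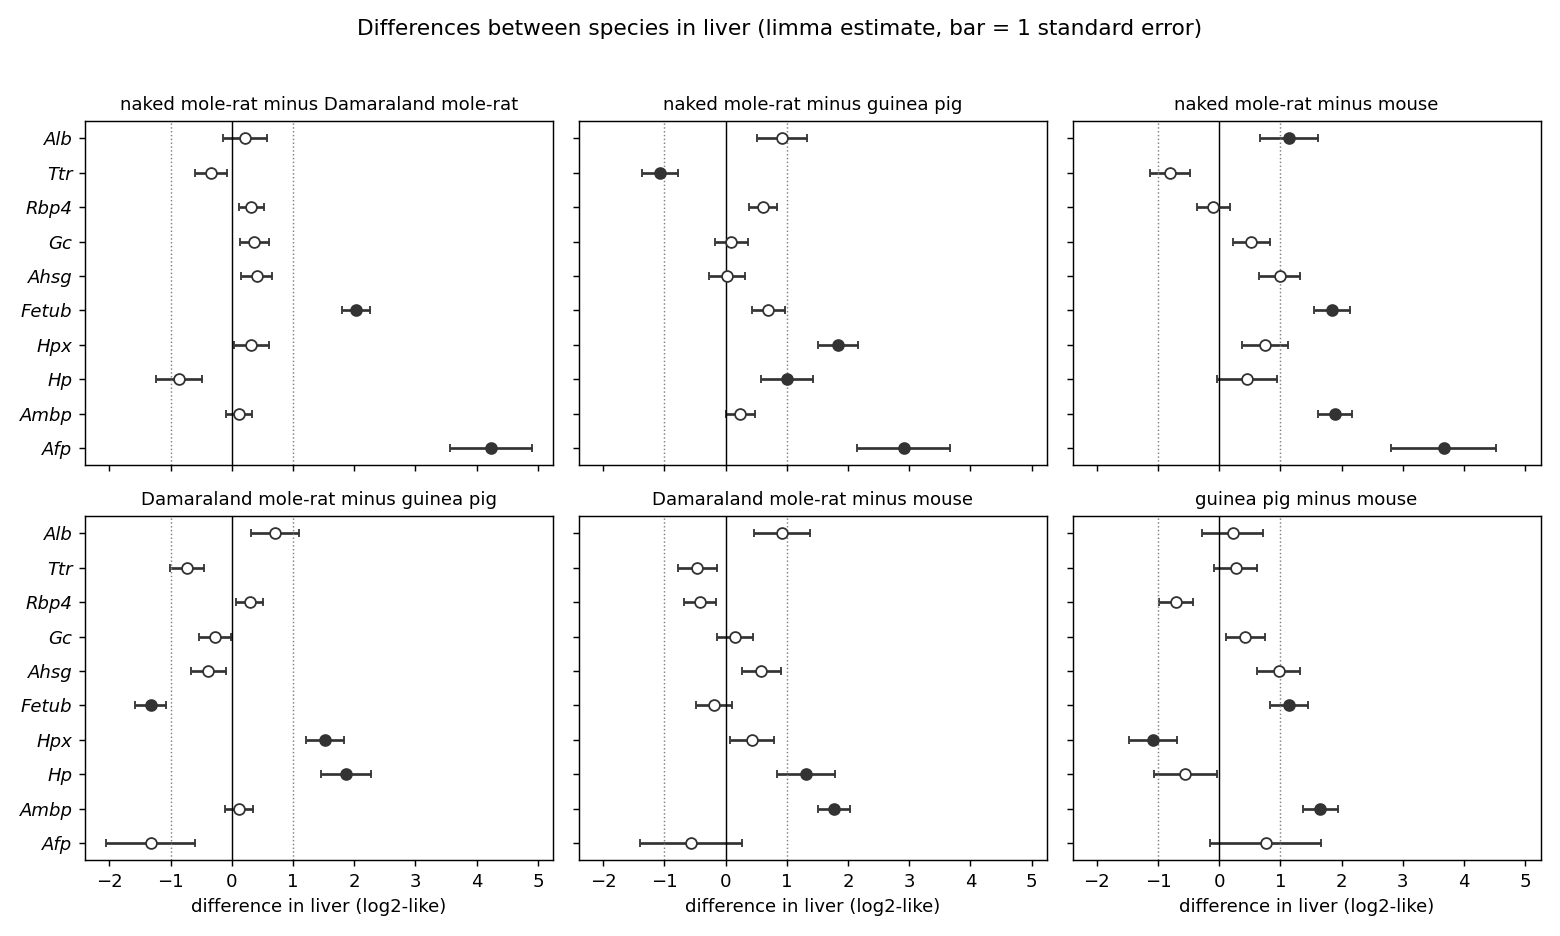
Differences between species in liver on the log2-like scale for the 10 carrier genes, 1 panel per pair of species, with limma estimates and bars of 1 standard error; filled points were called and dotted lines mark a difference of 1. Afp has the widest difference in each panel with naked mole-rats (4.24, 2.91 and 3.67), and Gc, Rbp4 and Ahsg are open in every panel.

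Counted over the set, between 2 and 4 of the 10 genes were called in each liver comparison, which is to be read against the share of all genes called. Naked minus Damaraland mole-rats called 2, both higher (Afp and Fetub), against 34.2% of all genes tested (16.6% higher, 17.6% lower). Naked mole-rats minus guinea pigs called 3 higher (Afp, Hpx and Hp) and 1 lower (Ttr), against 37.8% (19.4% higher, 18.5% lower). Naked mole-rats minus mice called 4, all higher (Afp, Ambp, Fetub and Alb), against 41.2% (21.1% higher, 20.1% lower).

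Damaraland mole-rats minus guinea pigs called 2 higher (Hp and Hpx) and 1 lower (Fetub), against 36.2% of all genes (19.1% higher, 17.1% lower). Damaraland mole-rats minus mice called 2 higher (Ambp and Hp), against 39.2% (20.9% higher, 18.4% lower). Guinea pigs minus mice called 2 higher (Ambp and Fetub) and 1 lower (Hpx), against 37.2% (18.8% higher, 18.4% lower). The mole-rat average minus the outgroup average called 3 higher (Ambp, Hpx and Hp), against 28.1% (15.1% higher, 13.0% lower). Counted in either direction, the shares of the carrier genes were thus near or below those of all genes. The contrasts share libraries, and each is given with its own values.

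A single guinea pig decided the comparison of the averages. Without guinea pig liver replicate 2, which had the lowest value among the guinea pigs for each of the 10 genes except Ttr, none of the 10 genes was called: Hpx was 0.89, Hp 0.94 and Ambp 0.92 (limma, adjusted p = 0.0006, 0.0131 and 0.000216), all below the size threshold of 1. Hpx was also below it without mouse replicate 2 (0.99). Leaving out the female Damaraland liver ended only the call of Ambp in this comparison (0.98). Quantile normalisation, which gives each library the same set of values, set the differences of Alb to 0 because Alb ranked first in every liver. Under it Hp was lower in naked than in Damaraland mole-rats (−1.49, adjusted p = 0.00067) and Ttr was lower in naked mole-rats than in mice (−1.20, adjusted p = 0.0013).

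Markers of the cell types a liver sample could hold were read in the same comparison of averages. Of 21 hepatocyte markers 1 was higher and 3 lower, of 6 bile duct markers 1 and 2, of 6 stellate and fibroblast markers 1 and 2, of 4 macrophage markers 0 and 2, and of 7 endothelial markers 0 and 0. Red cell and leukocyte markers had 0 higher and 3 lower of 4, adipocyte markers 2 and 0 of 5, and cardiomyocyte markers 1 and 0 of 9. Between single species the counts were larger. Endothelial markers were higher in guinea pigs than in mice for 5 of 7, against 18.8% of all genes. In naked mole-rats minus mice 4 of 7 were higher, against 21.1% of all genes. Stab1 went the other way there, at 7.83 to 8.61 in naked mole-rats against 10.50 and 10.60 in mice. In Damaraland mole-rats minus guinea pigs, 4 of 6 stellate and fibroblast markers and 4 of 6 bile duct markers were lower, against 17.1% of all genes. Pdgfrb and Spp1 of these lists went the other way. Pdgfrb was at 9.11 to 10.18 in Damaraland livers against 7.99 to 8.75 in guinea pigs, and Spp1 at 5.92 to 7.13 against 4.56 to 5.32. The part of these cell type markers in the differences of the carrier genes was not tested.

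The proteins that bind these carriers were read from a list of 22 receptors, partners and processing enzymes, of which 20 were tested. In the mole-rat average minus the outgroup average 7 were higher and 1 lower, with a median difference of 0.52 beside 0.02 for all genes tested. Hmox1, the enzyme that breaks down heme, was among the higher ones (1.73). Its species means were 10.53 in naked mole-rats, 10.04 in Damaraland mole-rats, 9.40 in guinea pigs and 7.71 in mice. Itih3, a heavy chain that is joined to bikunin, was also higher by 1.73, with means of 16.97, 15.20, 15.49 and 13.22 in the same order. Both had their lowest values in mice, as Ambp did. Cd163, the macrophage receptor for the haptoglobin-hemoglobin complex, was lower (−2.13) and was at 0 reads in all 4 naked mole-rat livers, at 3 to 14 reads in Damaraland mole-rats and 5 to 10 in guinea pigs, and at 193 and 663 reads in mice.

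Other plasma carriers, with 18 genes tested, had 3 higher and 4 lower in the mole-rats. Serpina7, thyroxine-binding globulin, was higher by 4.29: its means were 10.90 in naked and 10.81 in Damaraland mole-rats, 8.39 in mice and 4.73 in guinea pigs, where it had 0 to 10 reads. In these means the carriers of thyroid hormone lay in different orders: guinea pigs had the highest mean of Ttr and the lowest of Serpina7. Whether Serpina7 reads of guinea pigs were assigned to this identifier is not known. Ttr of guinea pigs was not called different from that of mice (0.27, limma, adjusted p = 0.534). In the mole-rats Ttr was lower than in the outgroups on average. Shbg, the sex hormone carrier, was higher by 2.51 in the average, which came from Damaraland mole-rats with 418 to 1305 reads, while naked mole-rats had 0 or 1 read, guinea pigs 1 to 7 and mice 0. Lrg1, a leucine-rich glycoprotein of plasma, was lower (−3.47), as was Saa4, a constitutive serum amyloid carried on lipoproteins (−2.16). Their low values lay in Damaraland mole-rats, with means of 5.46 and 8.40 against 10.27 and 13.97 in naked mole-rats.

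Of 16 acute phase genes tested, 2 were higher and 2 lower in the mole-rats, with a median of 0.32. Itih3 and Lrg1 also belong to this list. Apcs, the pentraxin serum amyloid P, was higher by 1.63 and ran from 9.94 to 12.91 within the Damaraland livers. Crp, C-reactive protein, was lower (−2.47) because Damaraland mole-rats had 0 to 3 reads, against 1475 to 4657 in naked mole-rats, 287 to 592 in guinea pigs and 4589 and 7192 in mice. Crp was this low in every Damaraland liver whatever its Hp, so it says nothing of Hp there. Whether Crp reads of this species were assigned to this identifier is not known.

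The list of hepatocyte regulators and fetal liver genes that accompany albumin and Afp had 20 genes tested, with 2 higher and 2 lower. Igf2, a growth factor of the fetal liver, was higher by 3.74 because mice had 28 and 7 reads. Its means were 14.83 in naked mole-rats, 13.91 in guinea pigs and 12.08 in Damaraland mole-rats. Gpc3, a surface proteoglycan of fetal liver, was higher by 2.79 and was highest in Damaraland mole-rats (11.39) against 8.78 in naked mole-rats, 9.15 in guinea pigs and 5.45 in mice. Neither followed the order of Afp, in which Damaraland mole-rats were lowest. Dbp, an albumin promoter-binding factor under clock control, was lower (−2.05). Dbp had 10 reads in naked mole-rat replicate 3, the liver with low Afp, and 134 to 184 in the other naked mole-rats. That pairing rests on a single liver, and a relation of Dbp to Afp was not tested.

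Zhx2 and Zbtb20, repressors of Afp in mouse liver, were looked up after their values were seen. Zhx2 had its lowest mean in naked mole-rats, 7.94 ± 0.22, against 9.43 ± 0.21 in Damaraland mole-rats, 9.21 ± 0.31 in guinea pigs and 8.88 ± 0.10 in mice (SD, n = 4, 5, 3 and 2). Zbtb20 was 12.77 ± 0.20 in mice and 9.88 to 10.84 in the means of the other species. The lowest mean of Afp, in Damaraland mole-rats, stood beside the highest of Zhx2, and the highest, in naked mole-rats, beside the lowest. Zbtb20 was highest in mice, whose Afp was not the lowest. Among naked mole-rat livers the SD was 2.30 for Afp and 0.22 for Zhx2. Guinea pigs were above mice in the means of both Zhx2 and Afp (Afp 6.62 and 5.86). No relation across libraries was tested.

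The genes whose liver pattern was most like a member were found by the root mean square difference over the 14 liver libraries, after centring each gene. For Rbp4 these were Mien1 (0.193) and Rps18 (0.197). For Gc they were Npc2 (0.17) and Abcb6 (0.182), and Abcb6 (0.255) was also near Ahsg, after Manba (0.254). Ambp lay nearest to Maob (0.184) and Spata24 (0.222), which were likewise lowest in mice: Maob averaged 11.51 there and 13.12 to 13.40 in the other species.

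Ttr lay nearest to Klhl15 (0.252) and Arl8b (0.295), Fetub to Tmbim1 (0.297) and Stat2 (0.311), and Hpx to Mttp (0.279) and Bzw2 (0.315). Mttp loads lipid onto lipoproteins and, like Hpx, was lowest in guinea pigs, with a mean of 12.01 against 13.03 to 13.94 elsewhere. Hp was matched less closely, with Ndufa11 and Fam234a both at 0.468. Afp had no close match: Bean1 (0.86) and St6galnac3 (0.931) shared high values in naked mole-rats, at 8.91 and 8.75, but with less spread between their livers (SD 0.74 and 0.43).

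In heart the carrier genes were rare, and naked mole-rats had the highest levels. Alb had 30974, 13336 and 6948 reads in naked mole-rat hearts, the last in the shallowest library, which is 26191.8, 8649.7 and 25736.9 scaled reads. Damaraland hearts had 2276.9, 4119.5, 1452.2, 1519.0 and 4582.8 scaled reads, guinea pigs 898.7, 1628.6 and 320.9, and mice 258.8, 844.2 and 233.4. Naked mole-rat hearts thus lay above every other heart, and Damaraland and guinea pig hearts overlapped. The 10 genes together made up 0.177% ± 0.0797 of heart reads in naked mole-rats, 0.0286% ± 0.0140 in Damaraland mole-rats, 0.0119% ± 0.0075 in guinea pigs and 0.0039% ± 0.0027 in mice (SD, n = 3, 5, 3 and 3). The heart and liver tables were normalised separately, so tissues are compared by shares of reads.

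**Figure D3:**
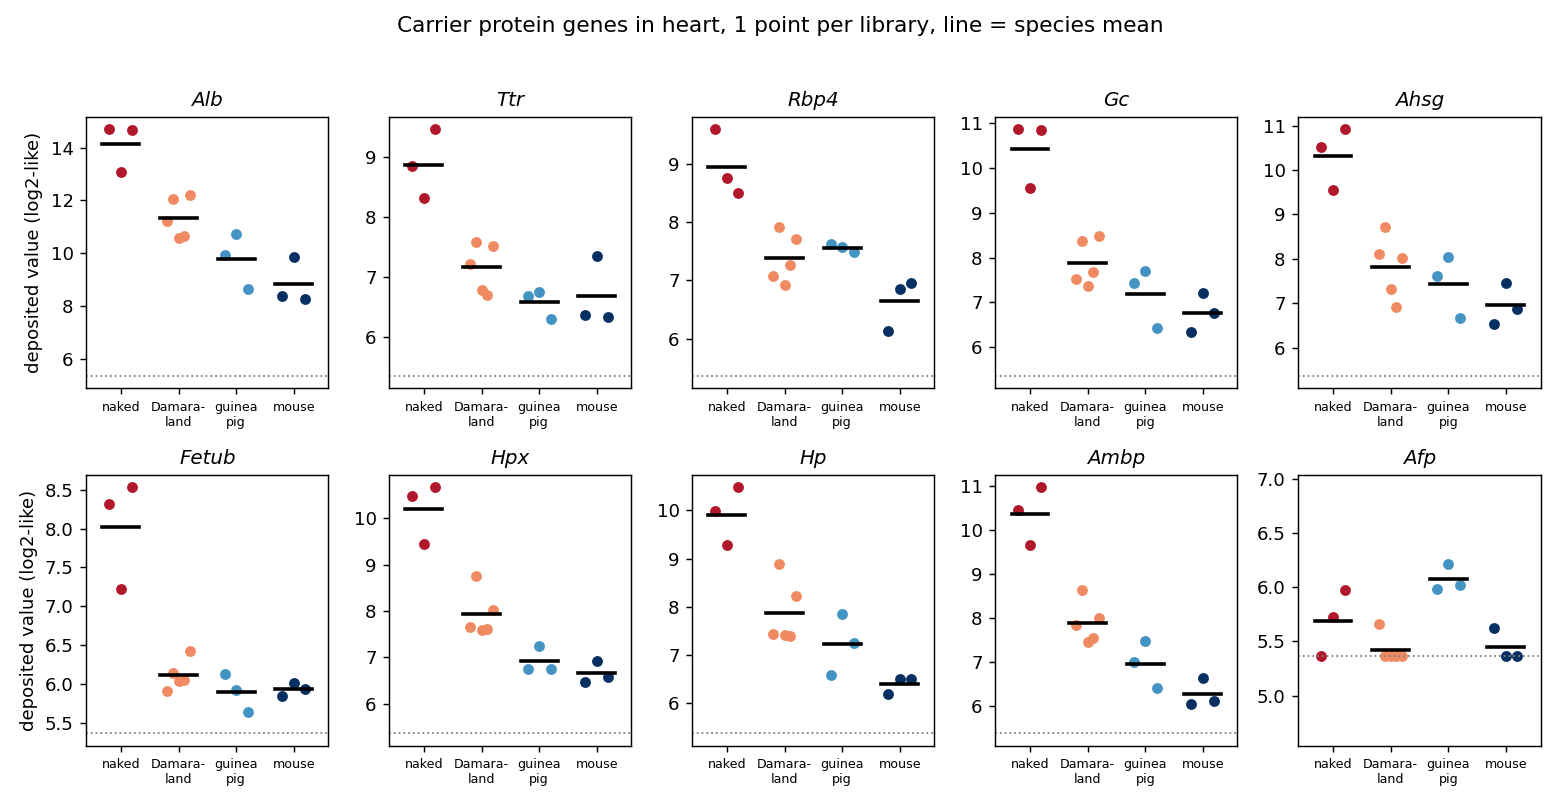
Deposited log2-like values of the 10 carrier genes in heart, 1 panel per gene with its own y axis and 1 point per library; black lines are species means and the dotted line is the value of 0 reads (5.36). Naked mole-rats are highest for each gene except Afp, and the heart with the lowest value in naked mole-rats is replicate 2 for 8 genes and replicate 3 for Rbp4.

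The filter on low values passed 9 of the 10 genes in heart. Afp was below it, with 0 to 19 reads in any heart, and Fetub passed only through its naked mole-rat values, so it had to differ. Ambp was above the filter in 3 of the 4 species means. The other genes were above it in every species.

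Apart from Fetub, each of the 8 tested genes was called higher in naked mole-rat hearts than in each other species. The share of all genes called in either direction was 29.4% against Damaraland mole-rats (14.2% higher, 15.2% lower), 33.0% against guinea pigs (16.0% higher, 17.0% lower) and 38.2% against mice (18.0% higher, 20.2% lower). The largest difference was that of Alb: 2.81 ± 0.51, 4.37 ± 0.57 and 5.30 ± 0.57 (limma, adjusted p = 0.000164, 5.81e-06 and 5.28e-07). The smallest against Damaraland mole-rats and guinea pigs was that of Rbp4, at 1.57 ± 0.26 and 1.39 ± 0.30 (adjusted p = 7.63e-05 and 0.00069). Leaving out any 1 library ended none of these calls. Ttr in naked mole-rats minus guinea pigs was called in both tissues with opposite signs, 2.28 ± 0.32 in heart (adjusted p = 1.03e-05) and −1.07 in liver. Differences of opposite sign that were not called in liver included Hp in naked minus Damaraland mole-rats (2.05 in heart, −0.86 in liver) and Rbp4 in naked mole-rats minus mice (2.30 and −0.10).

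Damaraland hearts were called higher than guinea pig hearts for 2 genes, Alb (1.56 ± 0.51) and Hpx (1.01 ± 0.28), with adjusted p of 0.0145 and 0.00559 with limma, against 29.7% of all genes (14.7% higher, 15.1% lower). Without guinea pig heart replicate 3, which had the fewest Alb reads of the guinea pigs (407), neither was called (0.99 and 0.92, adjusted p = 0.126 and 0.0287). The same library decided Alb between guinea pigs and mice: without it, guinea pigs were higher by 1.50 (adjusted p = 0.041) in place of 0.93 ± 0.57 (adjusted p = 0.173). Hpx in Damaraland against guinea pig hearts was also under the size threshold without Damaraland replicate 2 or 5 or guinea pig replicate 1 (0.80, 0.98 and 0.93). Ambp (0.93 ± 0.31) was called without Damaraland replicate 3 or 4 or guinea pig replicate 2 (1.04, 1.02 and 1.20).

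Against mouse hearts, Damaraland hearts were higher for Alb (2.49 ± 0.51), Ambp (1.63 ± 0.31), Hp (1.47 ± 0.35), Hpx (1.27 ± 0.28) and Gc (1.11 ± 0.35), which is 5 genes against 34.9% of all genes (16.9% higher, 18.0% lower). The adjusted p with limma was 0.000424, 0.000189, 0.00142, 0.000855 and 0.0104. Gc fell just under the size threshold without Damaraland replicate 2 or 5 or mouse replicate 1 (0.99, 0.96 and 0.90). Ahsg (0.86 ± 0.39) was called without Damaraland replicate 4 or mouse replicate 2 (1.08 and 1.11).

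Between guinea pig and mouse hearts limma called 0 of the tested carrier genes, against 32.1% of all genes (15.2% higher, 16.9% lower). The unadjusted p was under 0.05 for Hp (0.84 ± 0.39, limma, adjusted p = 0.0765) and Rbp4 (0.91 ± 0.30, limma, adjusted p = 0.0137), the latter under the size threshold. With voom on the recovered reads Rbp4 was called (1.94, adjusted p = 0.00767), as it was without mouse replicate 2 or 3 (1.02 and 1.07), and Hp was called without guinea pig replicate 1 (1.16, adjusted p = 0.0274). The mole-rat average exceeded the outgroup average for the 8 tested genes other than Fetub, against 23.4% of all genes (10.8% higher, 12.6% lower), from 1.06 ± 0.20 for Rbp4 to 3.43 ± 0.39 for Alb. Rbp4 fell under the size threshold without naked mole-rat replicate 1, Damaraland replicate 2 or mouse replicate 1 (0.90, 0.99 and 0.93).

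Whether the heart reads could stand for liver RNA in the heart libraries was described with 21 other hepatocyte genes, such as fibrinogen, Cps1 and Tat. These summed to 1109.0, 605.6 and 996.7 RPM in naked mole-rat hearts, 84.04 to 243.3 in Damaraland hearts, 59.14 to 158.2 in guinea pig hearts and 29.53 to 68.34 in mouse hearts. The sums thus fell in the same order of species as Alb, with naked mole-rat hearts above all others. Of the 18 markers tested in heart, 17, 16 and 17 were higher in naked mole-rats than in Damaraland mole-rats, guinea pigs and mice, and none lower. The filter can favour genes that are high in naked mole-rats: 7 of the 18 were above it in the means of all 4 species, 8 in 3 and 3 in 2. All of those 7 were higher in naked mole-rats in each of the 3 comparisons. Apoa2 had 3 reads or fewer in each guinea pig heart, and no other marker was that low in all hearts of a species. The part of these markers in the heart differences of the carrier genes was not tested.

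**Figure D4:**
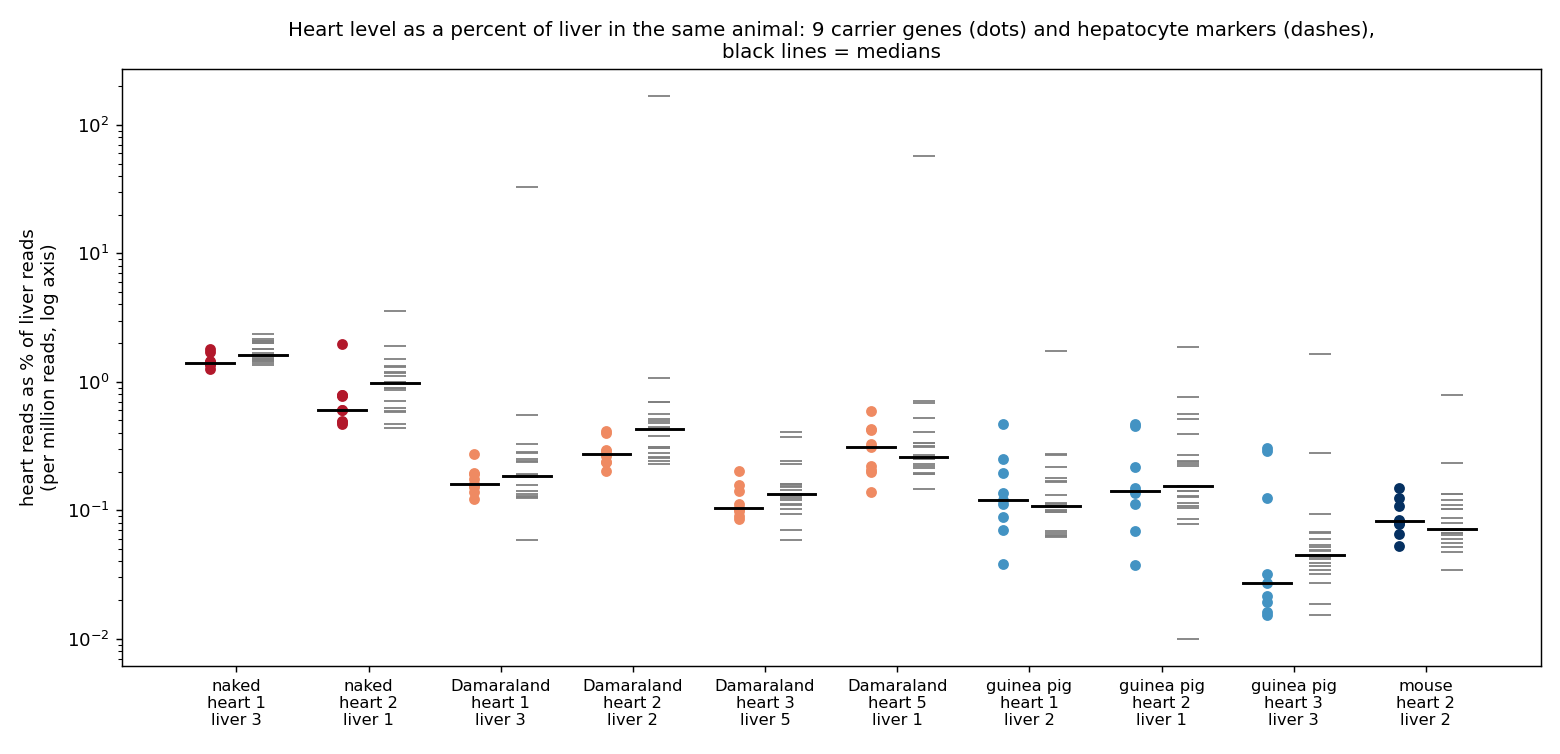
Heart RPM as a percent of liver RPM in the same animal on a log axis, for 9 carrier genes without Afp (dots) and 21 hepatocyte markers (dashes, 1 marker at 0 in guinea pig heart 3 not drawn); black lines are medians. Both kinds of gene sit near 1% in the 2 naked mole-rats and lower in the other 8 animals, and the highest dashes in 3 Damaraland mole-rats are Cyp2e1.

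In the 10 animals with both tissues, the heart level of each gene was expressed as a percent of its liver level, both in RPM. In naked mole-rat heart 1 the 9 carrier genes without Afp lay between 1.25% (Ttr) and 1.80% (Hp), with a median of 1.41%, beside a marker median of 1.62% and a marker range of 1.36% to 2.37%. In naked mole-rat heart 2 the carriers ran from 0.473% (Alb) to 1.96% (Hp) with a median of 0.606%, beside 0.984% for the markers. In the former heart the carriers thus kept nearly the proportions they had in liver.

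The medians of the carriers were 0.103% to 0.308% in 4 Damaraland mole-rats, 0.0269% to 0.141% in 3 guinea pigs and 0.0830% in 1 mouse. The marker medians were 0.134% to 0.428%, 0.0445% to 0.155% and 0.0711% in the same order. Divided by the marker median of its own animal, Alb ran from 0.48 to 1.19 over the 10 animals and Gc from 0.49 to 1.28. Ambp ran from 0.43 to 1.17 and Ahsg from 0.50 to 1.53, while Ttr (0.35 to 1.76), Fetub (0.24 to 2.30), Hpx (0.80 to 2.79), Hp (0.64 to 6.45) and Rbp4 (0.80 to 6.82) ranged more widely. The medians over the 10 animals lay between 0.68 (Ttr) and 1.37 (Hp).

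The widest departures from the marker median were in guinea pigs. Rbp4 stood at 4.31, 2.95 and 6.82 times the marker median in guinea pig hearts 1 to 3, and Hp at 1.80, 3.05 and 6.45 times. Hpx was also above the marker median in each (2.33, 1.40 and 2.79 times), and Ttr was below it in each (0.35, 0.45 and 0.37 times). In reads, Rbp4 had 189, 151 and 136 in these hearts while Alb fell from 2124 to 407 between hearts 2 and 3, so Rbp4 changed little where Alb changed several-fold. Scaled reads of Rbp4 in guinea pig hearts were 115.3 ± 7.8 (SD, n = 3), a narrow spread beside 949.4 ± 655.3 for Alb. Fetub rested on 2 to 18 reads in guinea pig hearts, too few for such a comparison: its 2 reads in heart 3 gave 0.0153% of liver with a 95% interval of 0.00186% to 0.0554% that covers counting error only. Adipocytes also express Rbp4: their 7 markers summed to 66.45 to 113.7 RPM in naked mole-rat hearts, 273.1 to 410.0 in Damaraland, 141.7 to 356.1 in guinea pig and 307.5 to 365.5 in mouse hearts, and their part in the Rbp4 values was not tested. Fabp4 had the most reads of the 7 in every heart, so the sum says little of the other markers. In mouse hearts Fabp4 had 8115, 8400 and 7608 reads and Adipoq 2, 0 and 5. In guinea pig hearts Fabp4 had 2226, 4472 and 2674 reads and Adipoq 8, 36 and 1. Lep was at 3 reads or fewer in each guinea pig and mouse heart, and Cidec in each mouse heart.

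Afp and Cyp2e1 gave the clearest departures in mole-rats. In naked mole-rats the departure of Afp rested on the heart with 4 reads, whose liver had 1755. That is 0.156% of liver (95% exact interval for counting error 0.0426% to 0.400%), where the markers had a median of 0.984%. The other heart had 0 reads and its liver 52, too few to tell its ratio from the marker median of 1.62%. A count of 0 allowed up to 0.122 to 0.351 RPM of Afp in the 7 hearts without a read. Guinea pig hearts had 12, 19 and 11 Afp reads, 12.9% to 22.8% of liver, far above their other carriers. Cyp2e1, a hepatocyte marker, had 237, 163 and 470 reads in Damaraland livers 1 to 3 and 30746 and 34179 in livers 4 and 5. In the hearts of the animals that gave livers 1 to 3 it had 97, 290 and 127 reads, 57.0%, 169% and 33.1% of the liver level, and in the heart of the animal that gave liver 5 it had 100 reads, 0.156%. Per library size these hearts held 11.3, 18.0, 8.61 and 4.54 RPM of Cyp2e1, the lowest in the animal whose liver was high in it. Livers 1 to 3 were labelled 36 months of age and livers 4 and 5 were labelled 48 months, so the liver split fell on that label. The animal that gave liver 3 was labelled 48 months in heart, and the part of age was not tested.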

How the data were processed

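RNA was measured in 14 heart and 14 liver libraries. Per the submitters' processing notes, cutadapt, Salmon 013.1 and DESeq2 were used and GRCm38 is the build named; how genes of the other species were assigned to mouse identifiers is not given in the sources used here. The authors deposited 1 table per tissue of variance-stabilised values on a log2 scale. A further 26 columns of these tables match no sample described here and were not used. The value of 0 reads was 5.3645 in heart and 4.2893 in liver; inverting the transform gave whole reads for 100% of values within 0.0001. Reads per library were 4089633 to 26985779, and the precision of rare genes is limited by their counts. Symbols were matched for 13921 of 13928 identifiers.

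Each tissue was fitted with limma 3.58.1 in R 4.3.3 with a coefficient per species and a variance trend, on genes with a mean at least 1 above the value of 0 reads, and tested on simulated data. Replicates are separate animals. Samples were grouped by species and tissue as labelled; the labels of 1 Damaraland mole-rat give 48 months for its heart and 36 for its liver. Named genes were the members, the 2 largest calls in each direction of 4 lists in the average contrast, and the 2 nearest patterns per member; a few of these are not reported here. The members and lists were chosen with earlier results of these data known; adipocyte markers were added after values were seen. Alternatives changed the size threshold, filter, centring, quantile normalisation, variance trend, library weights, replicate block, voom on reads, and each library in turn. No sequences are shown.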

Additional observations from a re-analysis of the deposited data

Results flagged for a closer look

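Afp in Damaraland mole-rat heart replicate 1 stood at 5.66, where the other 4 hearts were all at the value of 0 reads (5.3645); it rests on 2 reads. For normally distributed values chance sets about 1 in 20 groups apart in this way, and 30 groups were looked at. That rate does not hold here: with 4 hearts tied at 0 reads, any read in the remaining heart is flagged. Ttr in naked mole-rats minus guinea pigs was −1.07 in liver and 2.28 in heart, and in naked mole-rats minus mice −0.80 in liver and 2.18 in heart. Rbp4 in guinea pigs minus mice was −0.71 in liver and 0.91 in heart. In each of these pairs the libraries of one species all lay above those of the other in one tissue and all below in the other tissue; the difference between tissues was not tested, since the tables were normalised separately.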

How the results depend on the processing

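Of the counts of called members and the ratios between tissues, 316 values under alternatives stayed within 1.5 times or within the spread of the reported value and 28 did not. Without the size threshold, guinea pigs minus mice called 5 members and the mole-rat average 5 in liver, and guinea pigs minus mice 1 in heart. Tested against a difference of 1, the liver counts were 1 for naked mole-rats minus guinea pigs, 0 for Damaraland mole-rats minus guinea pigs, 1 for Damaraland mole-rats minus mice, 0 for guinea pigs minus mice and 0 for the average. In heart they were 0 and 1 for Damaraland mole-rats minus guinea pigs and minus mice. Without a filter, Damaraland mole-rats minus mice called 1 in liver, and voom called 1 in heart for guinea pigs minus mice. The mouse ratio of heart to liver was 0.114% with size factors and 0.0345% from species medians, beside 0.0830%. Leaving out 1 library gave liver counts of 2 to 5 for naked mole-rats minus guinea pigs, 1 to 2 for Damaraland mole-rats minus mice and 0 to 4 for the average, and heart counts of 0 to 3 for Damaraland mole-rats minus guinea pigs and 0 to 1 for guinea pigs minus mice. The cause was not tested.

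The differences that changed sign were all uncalled in the reported fit. Under quantile normalisation the liver values in naked minus Damaraland mole-rats were −0.29 for Ahsg, −0.25 for Hpx, −0.63 for Ambp and −0.32 for Gc. In naked mole-rats minus guinea pigs they were −0.30 for Ahsg, −0.070 for Ambp and −0.11 for Gc, and in naked mole-rats minus mice −0.091 for Gc. Gc was 0.21 in Damaraland mole-rats minus guinea pigs, Ttr −0.063 in guinea pigs minus mice, Rbp4 −0.088 in the average, and Fetub in heart −0.011 in Damaraland mole-rats minus mice. With library weights Ambp was −0.029 and −0.0915 in naked and Damaraland mole-rats minus guinea pigs. Quantile normalisation also changed splits of calls: naked minus Damaraland mole-rats had 2 higher and 1 lower, naked mole-rats minus guinea pigs 2 and 1, and naked mole-rats minus mice 3 and 1.

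Leaving out 1 library in turn, Ahsg in naked mole-rats minus guinea pigs ran from −0.0947 to 0.1854 and Gc from −0.138 to 0.2454 in liver. Rbp4 in naked mole-rats minus mice ran from −0.2347 to 0.0423, and Ambp in Damaraland mole-rats minus guinea pigs from −0.0442 to 0.3788. In Damaraland mole-rats minus mice Ttr ran from −0.9254 to 0.0007, Fetub from −0.5109 to 0.1323 and Gc from −0.0873 to 0.3953, and Ttr in guinea pigs minus mice from −0.1951 to 0.731. In heart, Ahsg in Damaraland mole-rats minus guinea pigs ran from −0.0034 to 0.6754, and in guinea pigs minus mice Ttr from −0.2817 to 0.2265 and Fetub from −0.1491 to 0.09.

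Replicate numbers paired nothing: same-numbered libraries had a median correlation of deviations of −0.018 in heart and 0.026 in liver, and 6 and 2 of 14 libraries correlated best with their own number. With the replicate block, Damaraland mole-rats minus mice called 1 member in liver, Ahsg in naked mole-rats minus guinea pigs was −0.062 and Afp in Damaraland mole-rats minus mice 0.034. Mouse liver has 2 animals, and leaving out 1 assumes that the other varies like the remaining species. Depth limits Fetub in guinea pig hearts and Afp in all hearts.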
